A study of Trametes versicolor with 12 samples.

Results

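Among the genes of the white-rot fungus Trametes versicolor, 66 of 14296 gene models gained transcript with culture age in strain BRFM1218 and lost it in strain 1956-1252. They were chosen by their age ratios. For each gene the mean CPM of a group (reads scaled to an equal total in every library) at 4 weeks, plus 1, was divided by that at 2 weeks, plus 1. A gene was kept with a ratio of at least 1.5 in BRFM1218 and at most 0.667 in 1956-1252, and a mean of at least 5 CPM in at least 1 group of each strain. Of the 8418 genes that passed the level minimum, 1318 met the first threshold and 246 the second, and the 66 members were 5.01% of the first list and 26.8% of the second. Over all genes past the level minimum, 2.92% met the threshold for 1956-1252 and 15.7% that for BRFM1218. The mirrored rule, a fall in BRFM1218 with a rise in 1956-1252, held for 143 genes. The same thresholds were passed upward in both strains by 296 genes and downward in both by 32.

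Both strains were grown on agar medium with 4% malt, and RNA was sequenced from mycelium of BRFM1218 at 2 weeks, BRFM1218 at 4 weeks, 1956-1252 at 2 weeks and 1956-1252 at 4 weeks. Each of the 4 groups had 3 libraries, described in the labels as biological replicates from triplicate cultures, so that p-values measure the spread between these cultures. Each strain is a single isolate, so a difference between strains cannot be told apart from a difference between these isolates. Reads assigned to genes ranged from 31763162 to 74647672 per library, of which 98.7 to 99.2% were unique, and 3 reads corresponded to 0.0402 to 0.0944 CPM. A mycelium that ages on a closed plate runs down the sugars of the medium, and its hyphae differ by position: the margin grows while the older centre stops growing, recycles its own cell contents and turns to stored and less accessible carbon. Fungal secondary metabolites and secreted enzymes are known to be made in step with such changes of growth, and isolates of 1 species can differ in their timing. In bulk mycelium, a change in the share of hyphae of 1 kind and a change in RNA per hypha cannot be told apart.

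Of the 66 members, 65 had a RefSeq locus tag and 0 had a gene symbol, so no function is given for any of them. All 66 passed the filter on low counts. Levels below are CPM with TMM factors (trimmed means of M values, a scaling that sets aside the most extreme genes), as mean ± SD over 3 libraries unless each library is given. Because all 12 libraries entered the rule, the age changes are descriptions of the choice and were not tested as results. In all 66 members the 3 libraries of BRFM1218 at 4 weeks lay above those at 2 weeks, which held for 31.8% of all 12648 tested genes, and in all 66 the libraries of 1956-1252 at 4 weeks lay below those at 2 weeks, against 31.1%. Both held together for 8.70% of tested genes. In edgeR's quasi-likelihood test all 66 had an adjusted p under 0.05 for each age change and for its difference between strains, against 33.0%, 23.4% and 27.2% of tested genes in the same directions. These counts follow from the rule.

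**Figure D1:**
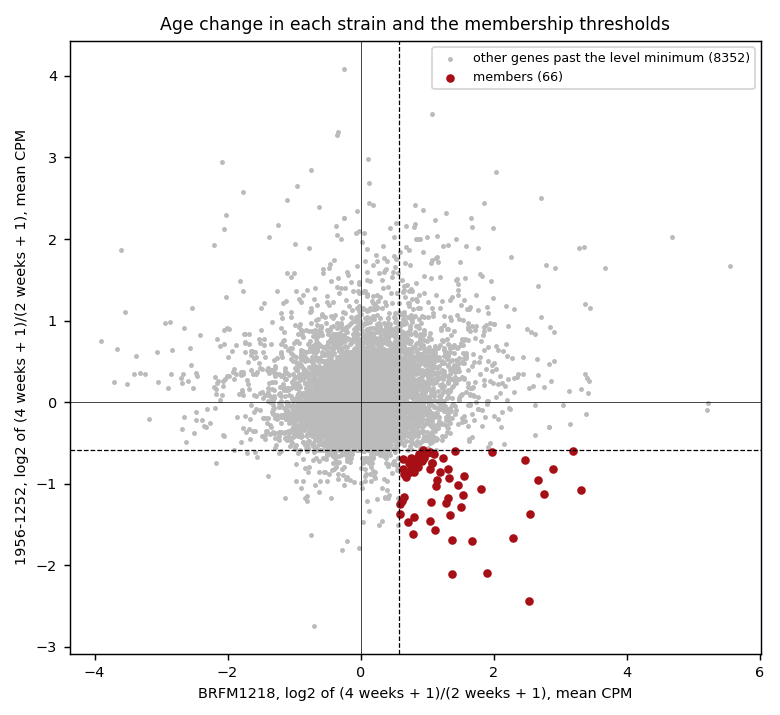
Age ratio of each gene past the level minimum in BRFM1218 (horizontal) and 1956-1252 (vertical), each as log2 of mean CPM plus 1 at 4 weeks over 2 weeks. Dashed lines mark the thresholds of 1.5 and 0.667, and the 66 members fill the lower right corner.

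The age ratio of the members ran from 1.51 to 9.94 in BRFM1218, with a median of 2.09, and from 0.184 to 0.665 in 1956-1252, with a median of 0.549. At least 2-fold changes in both strains were seen in 20 members, in BRFM1218 in 38 and in 1956-1252 in 27. The rise was the larger of the changes, on the log2 scale, in 43 members and the fall in 23. A larger rise went only weakly with a deeper fall: between the log2 ratios of both strains, Pearson's r was -0.22 and Spearman's rho -0.17 over 66 members. This is a description over genes that share the same libraries and whose ranges the rule bounded.

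TRAVEDRAFT_74496 had the strongest opposite change. It was at 1.63, 1.49 and 1.99 CPM in the BRFM1218 libraries at 2 weeks and at 17.6, 15.7 and 13.5 CPM at 4 weeks, while in 1956-1252 it was at 35.6, 35.3 and 34.6 CPM at 2 weeks and at 5.17, 5.24 and 6.29 CPM at 4 weeks. No 2 groups overlapped, and the order of the groups reversed with age: 1956-1252 was the higher strain at 2 weeks and BRFM1218 at 4 weeks. The log2 change with age was 3.20 (SE 0.15) in BRFM1218 and -2.66 (SE 0.12) in 1956-1252.

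TRAVEDRAFT_47943 was at 5.96, 5.85 and 3.79 CPM in BRFM1218 at 2 weeks and at 21.4, 27.5 and 18.5 CPM at 4 weeks, against 36.0, 37.6 and 27.4 CPM in 1956-1252 at 2 weeks and 6.74, 7.19 and 7.11 CPM at 4 weeks. Its replicate 3 was the lowest library of its group in both groups of BRFM1218 and in 1956-1252 at 2 weeks, without bridging the gap between ages. TRAVEDRAFT_33992 moved from 11.3 ± 1.62 to 38.5 ± 4.37 CPM in BRFM1218 and from 57.2 ± 3.04 to 16.4 ± 1.36 CPM in 1956-1252. TRAVEDRAFT_24626 moved from 4.23 ± 0.980 to 25.3 ± 3.90 CPM and from 39.5 ± 2.61 to 11.4 ± 0.574 CPM. Both were higher in 1956-1252 at 2 weeks and higher in BRFM1218 at 4 weeks, with no overlap between strains at either age.

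The next members by the smaller of both log2 changes were TRAVEDRAFT_173629, TRAVEDRAFT_55030, TRAVEDRAFT_80160, TRAVEDRAFT_129640, TRAVEDRAFT_39801 and TRAVEDRAFT_74244. TRAVEDRAFT_55030 was among the 3 members with a ratio of at most 0.25 in 1956-1252 (0.232), from 94.1, 92.4 and 75.8 CPM to 18.3, 19.1 and 19.4 CPM, and in BRFM1218 it went from 48.9 ± 2.67 to 127 ± 14.9 CPM. The others with so deep a fall were TRAVEDRAFT_74496 and TRAVEDRAFT_47943. TRAVEDRAFT_80160 went from 2.31 ± 0.398 to 19.2 ± 2.73 CPM in BRFM1218 and in 1956-1252 from 14.6, 16.2 and 13.3 CPM to 4.06, 5.12 and 5.82 CPM. In TRAVEDRAFT_39801 the opposite changes were of similar size, with ratios of 2.85 in BRFM1218 and 0.412 in 1956-1252, but the levels differed. It went from 10.6 ± 2.54 to 32.0 ± 2.17 CPM in BRFM1218 and from 5.64 ± 0.486 to 1.76 ± 0.155 CPM in 1956-1252. In TRAVEDRAFT_74244 the strains met at 4 weeks, at 45.8 ± 5.84 CPM for BRFM1218 and 45.0 ± 1.46 CPM for 1956-1252, after 18.3 ± 0.675 and 111 ± 2.68 CPM at 2 weeks. TRAVEDRAFT_129640 came close to that, with 21.1 ± 1.67 against 18.6 ± 0.685 CPM at 4 weeks after 7.73 ± 0.329 against 51.6 ± 1.61 CPM.

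**Figure D2:**
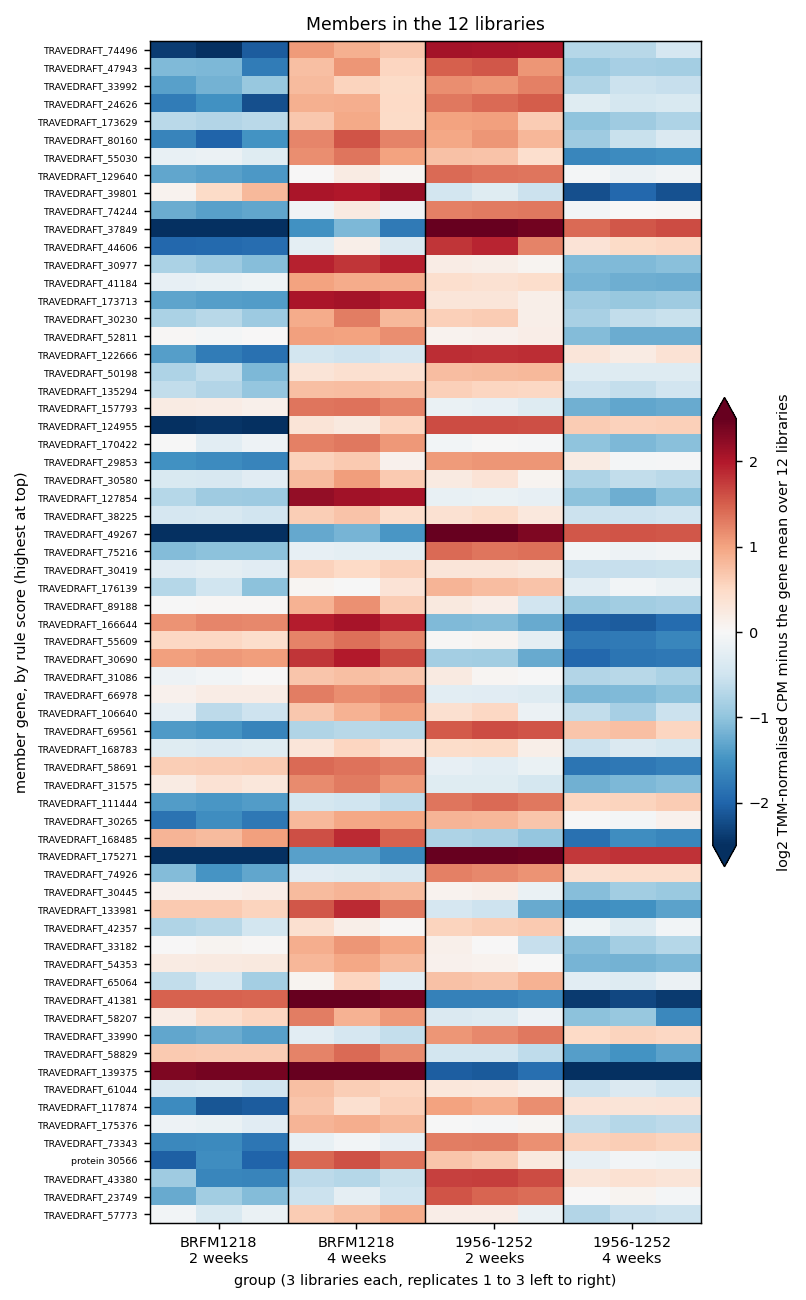
Each of the 66 members (rows, in order of the rule score) in each of the 12 libraries (columns), as log2 TMM-normalised CPM minus the gene's mean over the 12 libraries, with colours capped at 2.5 in either direction. Within each strain every row shifts in shade between ages, though not always across the gene's mean, and rows differ in which strain is the higher.

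Some members rose far more in BRFM1218 than they fell in 1956-1252. A ratio of at least 4 in BRFM1218 was reached by 9 members, and the 6 not described above are named here because of their values. TRAVEDRAFT_173713 had the largest rise, from 16.2 ± 0.435 CPM to 172, 176 and 162 CPM, while in 1956-1252 it went from 49.8 ± 2.99 to 22.3 ± 0.402 CPM. TRAVEDRAFT_30977 went from 23.7 ± 2.20 to 165 ± 8.98 CPM in BRFM1218 and from 49.0 ± 2.03 to 21.2 ± 0.473 CPM in 1956-1252, and TRAVEDRAFT_127854 from 19.8 ± 1.44 to 154 ± 7.25 CPM and from 31.0 ± 0.368 to 16.7 ± 1.25 CPM. In these 3 genes BRFM1218 at 4 weeks stood above the other 3 groups, and the fall in 1956-1252 was the smaller of the changes. TRAVEDRAFT_30265 went from 7.53 ± 0.849 to 47.0 ± 2.88 CPM in BRFM1218 and from 43.0 ± 2.33 CPM by a ratio of 0.609 in 1956-1252. TRAVEDRAFT_124955 went from 4.25 ± 0.619 to 33.1 ± 3.64 CPM in BRFM1218 and from 78.8 ± 0.979 to 38.9 ± 0.780 CPM in 1956-1252, and unlike the other 8 it was still higher in 1956-1252 at 4 weeks. The model without a locus tag, protein 30566, went from 11.3 ± 2.18 to 112 ± 9.17 CPM in BRFM1218 and from 58.7 ± 9.35 to 37.1 ± 1.89 CPM in 1956-1252. Its fall was close to the threshold (ratio 0.660), and the gene was no longer kept by the rule without replicate 1 or replicate 2 of 1956-1252 at 2 weeks or replicate 1 at 4 weeks.

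As shares of all reads, the 66 members together took 0.927 ± 0.00611% in BRFM1218 at 2 weeks and 1.75 ± 0.0794% at 4 weeks, and 1.26 ± 0.0896% and 0.639 ± 0.0244% in 1956-1252. TRAVEDRAFT_30445 alone supplied a large part of these reads in each group: without it the shares were 0.632 ± 0.00965%, 1.27 ± 0.0741%, 0.871 ± 0.0488% and 0.432 ± 0.0110% in the same order. This gene had 3571 ± 95.9 CPM at 2 weeks in BRFM1218 against 3313 ± 344 in 1956-1252, where libraries of the strains overlapped, and 5713 ± 140 against 1689 ± 109 CPM at 4 weeks, where they did not. Per length, in the authors' deposited RPKM, which is not TMM-scaled, it reached 9011 ± 197 in BRFM1218 at 4 weeks. TRAVEDRAFT_41381, a model of 222 bases, was higher on that scale, at 15013 ± 1650 RPKM in the same group. Of the other members, TRAVEDRAFT_30690 came next with 1518 ± 169 RPKM, and the median over members of the mean RPKM of 12 libraries was 34.9, beside 31.3 over all genes past the level minimum.

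Which strain was the higher depended on the gene and on the age. At 2 weeks the libraries of 1956-1252 all lay above those of BRFM1218 in 45 members (45.5% of all tested genes) and all below in 15 (41.1%). At 4 weeks they lay all above in 14 members (45.7% of all tested genes) and all below in 49 (40.4%). Since the rule selects genes that gain in BRFM1218 and lose in 1956-1252, a shift of the order toward BRFM1218 with age is part of the choice, and neither difference was tested. The order fully reversed, from 1956-1252 to BRFM1218, in 28 members (2.54% of tested genes) and in the other direction in 0 (3.12%). It stayed with 1956-1252 in 14 and stayed with BRFM1218 in 15, and libraries overlapped at 1 age in the other 9: at 4 weeks in TRAVEDRAFT_74244, TRAVEDRAFT_29853 and TRAVEDRAFT_65064, and at 2 weeks in TRAVEDRAFT_170422, TRAVEDRAFT_89188, TRAVEDRAFT_31086, TRAVEDRAFT_30445, TRAVEDRAFT_33182 and TRAVEDRAFT_57773. All 6 libraries of the higher strain lay above the other's 6 in those 14 and 15 members, against 34.4% and 30.5% of tested genes. Scaling by library size alone, which raises 1956-1252 against BRFM1218, gave 30 reversed members, 17 that stayed with 1956-1252 and 8 that stayed with BRFM1218. The shares over all tested genes were not counted with that scaling.

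**Figure D3:**
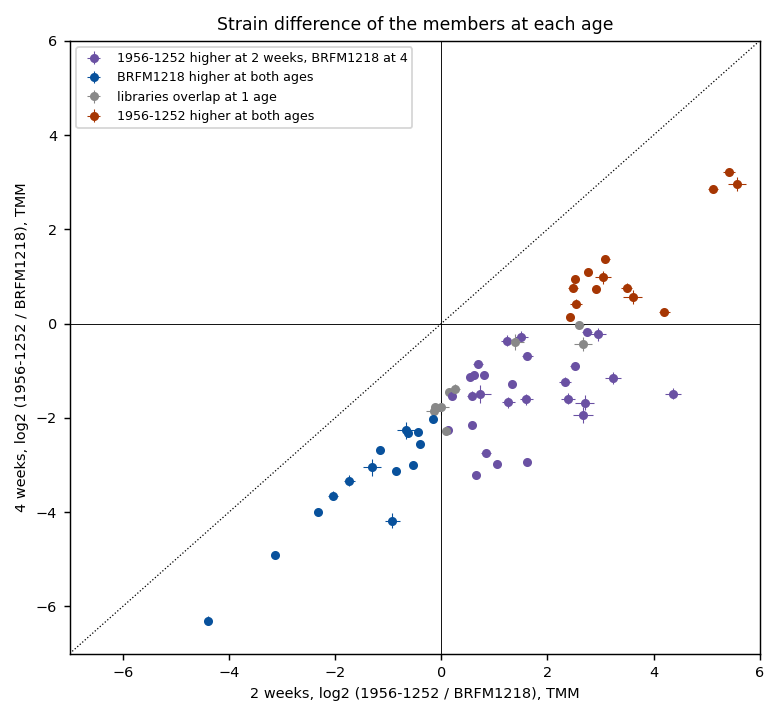
Log2 difference between strains (1956-1252 over BRFM1218, TMM-scaled, bars show the standard error) at 2 weeks (horizontal) and 4 weeks (vertical) for the 66 members. All points lie under the dotted line of equal difference, as the rule requires, and at 2 weeks they spread along it from -3.13 to 5.58, apart from TRAVEDRAFT_139375 at -4.40, whose reads were mostly not unique.

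In the 28 members that reversed, the age ratio had a median of 2.60 in BRFM1218 and 0.494 in 1956-1252. Some of them exchanged levels: in 11 members the level of BRFM1218 at 4 weeks was within 1.5-fold of that of 1956-1252 at 2 weeks, and the level of BRFM1218 at 2 weeks within 1.5-fold of that of 1956-1252 at 4 weeks. TRAVEDRAFT_173629 is an example, at 22.8 ± 0.541 and 60.8 ± 9.98 CPM in BRFM1218 at 2 and 4 weeks and at 69.0 ± 9.84 CPM in 1956-1252 at 2 weeks, where it fell to between 18.5 and 21.6 CPM at 4 weeks. TRAVEDRAFT_168783, chosen after its values were seen, was such a gene too, with 44.1, 43.1 and 44.3 CPM and then 67.7, 79.6 and 69.9 CPM in BRFM1218, and 75.5, 75.7 and 60.5 CPM and then 37.4 to 42.7 CPM in 1956-1252. Such an exchange rests on the scaling between strains, and it was not counted over all genes, so it is not shown to be particular to the members. Between BRFM1218 at 4 weeks and 1956-1252 at 2 weeks, the median size of the log2 difference was 1.26 in members and 1.07 over all tested genes. Between BRFM1218 at 2 weeks and 1956-1252 at 4 weeks it was 1.33 and 1.12. Over all members, BRFM1218 at 2 weeks and 1956-1252 at 4 weeks differed by a median of -0.07 on the log2 scale, but with quartiles of -1.16 and 1.57.

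In the 14 members that stayed higher in 1956-1252 the strains moved toward each other, as the rule requires, and the strain difference at 4 weeks ran from 0.13 to 3.21 on the log2 scale. TRAVEDRAFT_37849 was at 12.4, 12.9 and 14.6 CPM in BRFM1218 at 2 weeks and 32.8, 43.1 and 27.4 CPM at 4 weeks, against 714, 700 and 498 CPM in 1956-1252 at 2 weeks and 249, 276 and 288 CPM at 4 weeks. The lowest library of 1956-1252 was thus several times the highest of BRFM1218. TRAVEDRAFT_175271 went from 4.43 ± 1.01 to between 10.6 and 12.7 CPM in BRFM1218 and from 188 ± 8.64 to 112 ± 1.94 CPM in 1956-1252. TRAVEDRAFT_49267 went from 12.6 ± 1.48 to 32.9 ± 3.41 CPM and from 440 ± 25.6 to 240 ± 1.79 CPM, and TRAVEDRAFT_69561 from 9.61 ± 0.777 to 16.6 ± 0.352 CPM and from 81.6 ± 3.13 to 43.2 ± 3.31 CPM. In these 4 genes the strain difference stayed large while it shrank with age, in TRAVEDRAFT_37849 from 5.58 to 2.96 and in TRAVEDRAFT_69561 from 3.09 to 1.38 on the log2 scale. TRAVEDRAFT_75216 lay at the other end of this class, with 54.6 ± 0.679 CPM for BRFM1218 against 59.8 ± 1.39 CPM for 1956-1252 at 4 weeks, after 31.0 ± 0.748 and 166 ± 3.43 CPM at 2 weeks.

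In the 15 members that stayed higher in BRFM1218 the strains moved apart, as the rule requires. Their difference at 4 weeks ran from -4.90 in TRAVEDRAFT_41381 to -2.02 on the log2 scale, apart from -6.30 in TRAVEDRAFT_139375, whose reads were mostly shared with other loci. TRAVEDRAFT_41381 was at 1903, 1888 and 1868 CPM in BRFM1218 at 2 weeks and at 3877, 4506 and 3586 CPM at 4 weeks, against 211, 212 and 223 CPM and then 129, 141 and 130 CPM in 1956-1252. TRAVEDRAFT_30690 went from 952 ± 20.7 to 1597 ± 191 CPM in BRFM1218 and from 232 ± 36.3 to 127 ± 7.76 CPM in 1956-1252, and TRAVEDRAFT_166644 from 153 ± 5.44 to 265 ± 13.9 CPM and from 30.3 ± 1.95 to 16.6 ± 1.03 CPM. TRAVEDRAFT_54353, TRAVEDRAFT_58691 and TRAVEDRAFT_55609 fell more in 1956-1252 than they rose in BRFM1218. TRAVEDRAFT_54353 had 991 ± 10.6 against 890 ± 36.0 CPM in 1956-1252 at 2 weeks and 1553 ± 101 against 383 ± 7.01 CPM at 4 weeks. These 3 were chosen after their values were seen. The log2 difference between strains in TRAVEDRAFT_41381 was -3.13 (SE 0.07) at 2 weeks and -4.90 (SE 0.07) at 4 weeks. Over all 66 members the gap between strains was smaller at 4 weeks in 30 (45.5%), near the 50.3% of all tested genes. Its median size on the log2 scale was 1.55 at 2 weeks and 1.56 at 4 weeks, beside 1.08 and 1.04 over all tested genes.

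TRAVEDRAFT_139375 differed from the other members in the kind of read it rested on. Of its reads 14.2% were unique, the lowest share among the members, so its count was mostly of reads that also fit elsewhere and it is uncertain. With all reads it was at 649, 680 and 663 CPM (not TMM-scaled) in BRFM1218 at 2 weeks and at 1035, 912 and 1113 CPM at 4 weeks. With unique reads it was at 108, 112 and 108 CPM and then at 118, 98.9 and 132 CPM, and the ages overlapped. Its age ratio in BRFM1218 was thus 1.54 from all reads and 1.06 from unique reads, while in 1956-1252 it was 0.433 and 0.598. Of the 66 members, this was the one that the rule did not keep on unique reads. TRAVEDRAFT_106640 had the next lowest share of unique reads, 88.9%, with ratios of 2.12 and 0.600 from all reads and 2.15 and 0.609 from unique reads. Both are uncertain as to which gene copy the shared reads came from.

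**Figure D4:**
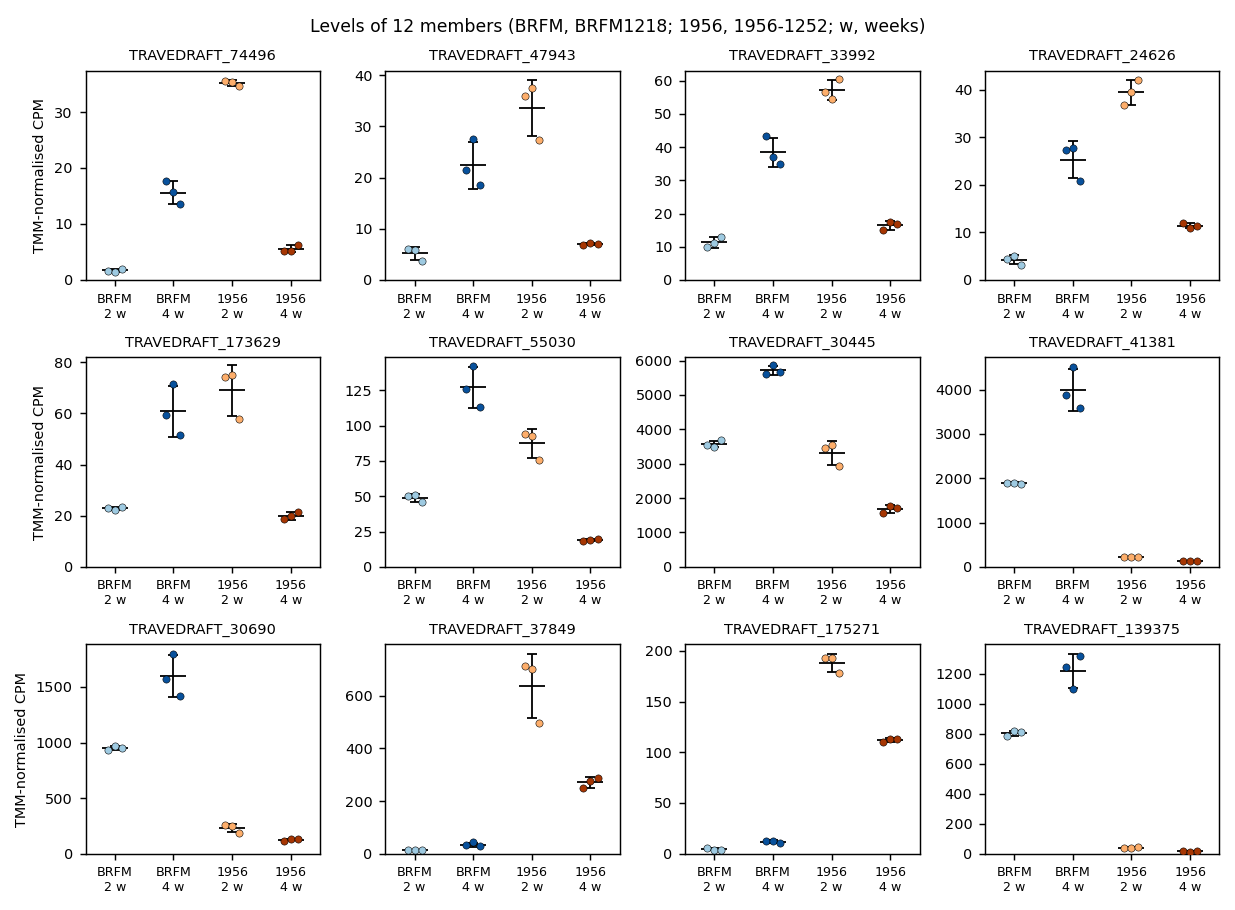
TMM-normalised CPM of 12 members in each library (points), with the mean and SD of each group of 3 (black), on axes that start at 0. The first 6 panels hold genes whose strains reverse in order, the strains overlap at 2 weeks in TRAVEDRAFT_30445, and TRAVEDRAFT_41381, TRAVEDRAFT_30690 and TRAVEDRAFT_139375 stay higher in BRFM1218 while TRAVEDRAFT_37849 and TRAVEDRAFT_175271 stay higher in 1956-1252.

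The strain difference averaged over both ages was tested, since the rule compared ages within a strain and did not use this contrast beyond the level minimum. In edgeR's quasi-likelihood test, with p adjusted over all 12648 genes, 29 of 66 members were higher in 1956-1252 and 34 were lower, or 43.9% and 51.5%. Among the 8418 genes past the level minimum, which the members had to pass, the shares called were 37.0% and 53.6%, and among all tested genes 47.0% and 42.5%. The members' shares were near this background, so the average strain difference does not set the members apart. Their median was -0.17 on the log2 scale, beside -0.22 over genes past the level minimum and 0.09 over all tested genes. With library size alone these medians were 0.36, 0.31 and 0.62 and the members' counts 36 higher and 27 lower. The share of called genes that were higher in 1956-1252 then rose from 46.0 to 57.1% in members. It rose from 40.9 to 61.5% in genes past the level minimum and from 52.6 to 68.4% over all genes. The members' share was thus above that of genes past the level minimum with TMM and below it with library size alone.

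Single members differed by large factors between strains. The largest differences with no overlap between the 6 libraries of each strain were 4.32 in TRAVEDRAFT_175271 (SE 0.07, adjusted p = 1.90e-19), 4.27 in TRAVEDRAFT_37849 (SE 0.11, adjusted p = 1.25e-16), 3.99 in TRAVEDRAFT_49267 (SE 0.06, adjusted p = 3.43e-20) and 2.23 in TRAVEDRAFT_69561 (SE 0.06, adjusted p = 8.03e-17). In the other direction they were -4.02 in TRAVEDRAFT_41381 (SE 0.05, adjusted p = 6.49e-21), -3.16 in TRAVEDRAFT_166644 (SE 0.05, adjusted p = 4.15e-20) and -2.84 in TRAVEDRAFT_30690 (SE 0.07, adjusted p = 7.34e-17). TRAVEDRAFT_139375, with mostly shared reads, was at -5.35 from all reads (SE 0.06, adjusted p = 1.84e-21) and at -3.64 from unique reads (SE 0.07, adjusted p = 7.00e-19), where TRAVEDRAFT_41381 stayed at -4.02. All 6 libraries of 1956-1252 lay above all 6 of BRFM1218 in 14 members (34.4% of tested genes) and below in 15 (30.5%). The 3 members that did not pass were TRAVEDRAFT_173629 (-0.00, SE 0.08, adjusted p = 0.957), TRAVEDRAFT_135294 (0.02, SE 0.06, adjusted p = 0.713) and TRAVEDRAFT_168783 (-0.08, SE 0.06, adjusted p = 0.199). How well reads of each strain aligned to the reference was not tested here, and levels compared between strains carry that limit.

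Gene order was taken from the RefSeq table of assembly Trametes versicolor v1.0, made from another strain, FP-101664 SS1. There, 2 pairs of members were direct neighbours and 14 of 65 placed members lay within 5 genes of another member. The same held within their own lists for 28 of the 143 genes with the mirrored pattern. It held for 79 of 295 placed genes that rose in both strains. Of 123 places next to a member, 4 held a member, or 3.25%, while members were 0.456% of all placed models. Of genes past the level minimum, which members had to pass, they were 0.784%. The same share was 2.84% for the 143 genes with the mirrored pattern (8 of 282 places), and 6.26% for the genes that rose in both strains, which were 2.07%. In all 3 lists the share next to a gene of the same list was above the list's share of placed models. For the members it rests on 2 pairs, and the lists were not tested against each other.

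The first pair was TRAVEDRAFT_173629 and TRAVEDRAFT_74496, both among the 10 highest by rule score. The next genes on either side were TRAVEDRAFT_52135, at 2.62 and 3.72 CPM in BRFM1218 and 51.7 and 62.7 CPM in 1956-1252 for 2 and 4 weeks, and TRAVEDRAFT_52138, at 135 and 128 CPM and at 52.8 and 72.1 CPM. Neither fell in 1956-1252, so the opposite change stopped at the pair. The second pair was TRAVEDRAFT_166644 and TRAVEDRAFT_58207, the latter at 8.49 ± 1.05 and 13.8 ± 1.86 CPM in BRFM1218 and in 1956-1252 at 5.06, 5.18 and 5.97 CPM and then at 3.19, 3.34 and 2.12 CPM. Their levels differed while their ratios were alike, 1.74 and 1.56 in BRFM1218 and 0.580 and 0.614 in 1956-1252. The loci of neither pair overlap in that table, in which 1 of 65 placed members, TRAVEDRAFT_31575, overlaps another locus. Use of strand in counting is not given in the sources used here, so for that gene reads of the overlapping locus cannot be told apart.

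**Figure D5:**
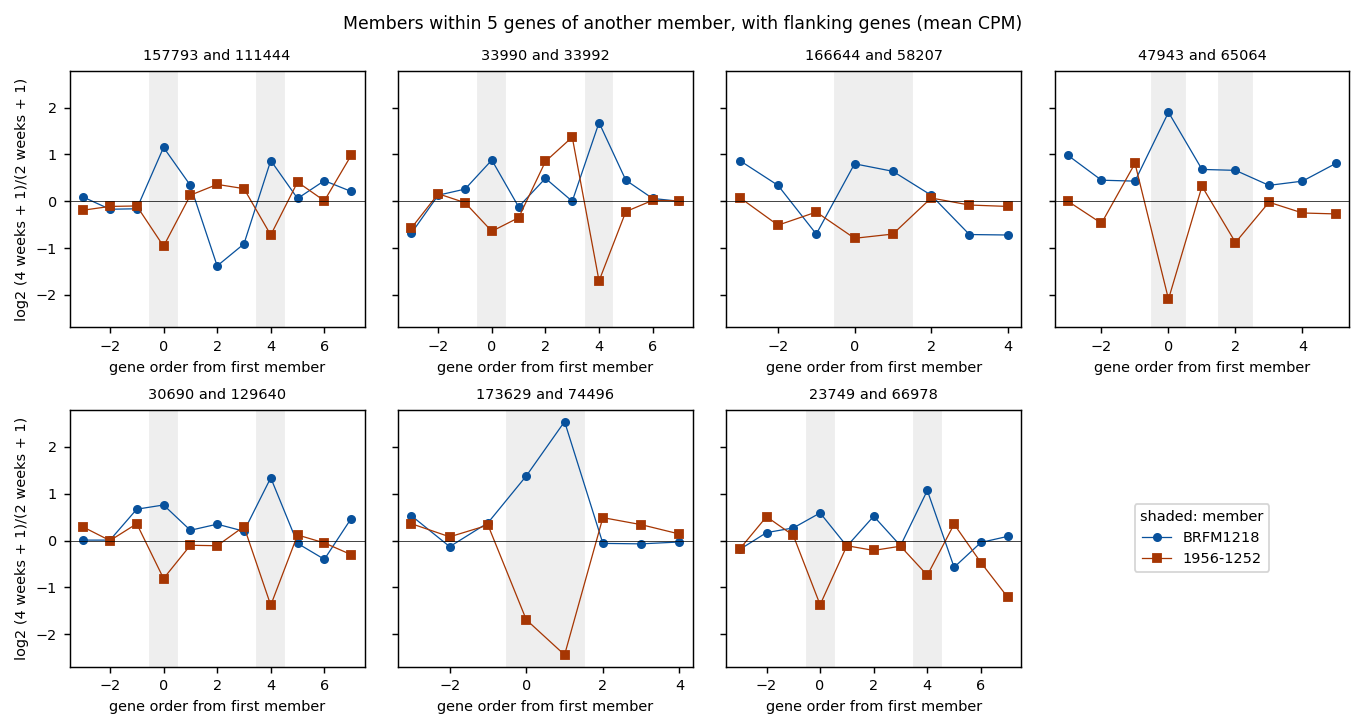
Log2 age ratio (mean CPM plus 1) in BRFM1218 (circles) and 1956-1252 (squares) by gene order around the 7 sets of members that lie within 5 genes of each other, titled by the number in the locus tag. Shaded genes are members, where the circles lie above and the squares below 0. The other genes were not kept by the rule, and some moved as the members did while others did not. TRAVEDRAFT_31564, at 0.09 in BRFM1218 and -1.21 in 1956-1252, fell more in 1956-1252 than the nearby member TRAVEDRAFT_66978 (-0.74).

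In the other 5 sets, genes that the rule did not keep lay between the members. TRAVEDRAFT_33990 and TRAVEDRAFT_33992 had ratios of 1.84 and 3.20 in BRFM1218 and 0.640 and 0.308 in 1956-1252, and of the 3 genes between them TRAVEDRAFT_68951, below the level minimum, had 2.59 in 1956-1252. Between TRAVEDRAFT_157793 and TRAVEDRAFT_111444, TRAVEDRAFT_109880 changed in the opposite way to the members, with ratios of 0.39 and 1.28. A single gene, TRAVEDRAFT_72274, separated TRAVEDRAFT_47943 from TRAVEDRAFT_65064, with 1.60 in BRFM1218 and 1.24 in 1956-1252. Between TRAVEDRAFT_30690 and TRAVEDRAFT_129640, TRAVEDRAFT_73756 (1.17 and 0.933) and TRAVEDRAFT_172083 (1.27 and 0.926) moved as the members did but less, while TRAVEDRAFT_73758 had 1.15 and 1.23. Between TRAVEDRAFT_23749 and TRAVEDRAFT_66978, TRAVEDRAFT_154853 did so too (1.43 and 0.866). There, TRAVEDRAFT_154849 and TRAVEDRAFT_154857 had 0.92 in BRFM1218 and 0.925 and 0.922 in 1956-1252. These examples were chosen after their values were seen.

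Replicates of the members scattered somewhat more than those of the genes past the level minimum. The median coefficient of variation was 5.91 against 4.99% in BRFM1218 at 2 weeks and 8.72 against 7.56% at 4 weeks. In 1956-1252 it was 5.83 against 4.72% at 2 weeks and 5.07 against 3.63% at 4 weeks. Replicate 3 of 1956-1252 at 2 weeks was the lowest of its group in 46 of 66 members, against 42.3% of genes past the level minimum, with a median deviation of -0.07 from the group mean on the log2 scale. In 1956-1252 at 4 weeks, replicate 3 was the highest in 34 and the lowest in 6, against 35.3% and 29.9%. Replicate 2 of BRFM1218 at 4 weeks was the highest in 40 of 66 members, against 40.2% of genes past the level minimum. Replicate 3 of that group was the lowest in 42 of 66, against 43.5%. In BRFM1218 at 2 weeks each replicate was the lowest in 16 to 27 members. The length of the models had a median of 1301 bases (222 to 5313) in members and 1446 bases over genes past the level minimum.

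None of the 42 genes with a symbol was a member. Counts here are over the genes of each list that passed the level minimum, since the others could not be members. Of all 8418 genes past it, 15.7% had an age ratio past the upward threshold of 1.5 in BRFM1218 and 12.1% one past the downward threshold, its reciprocal. In 1956-1252 these shares were 11.2% and 2.92%. Of 26 class II peroxidases, enzymes that attack lignin with hydrogen peroxide, 15 were below the minimum. Of the other 11, 5 had a ratio of at least 1.5 in BRFM1218 and 1 in 1956-1252, and 0 were past the downward threshold in either strain. Of the 4 dye-decolorizing and haem-thiolate peroxidases past the minimum (5 in all), 2 were past the upward and 1 past the downward threshold in BRFM1218, and all 4 were past the upward threshold in 1956-1252. Of 6 laccases and multicopper oxidases (8 in all), copper enzymes that oxidise phenols or metal ions, 3 were past the downward threshold in BRFM1218 and 3 past the upward in 1956-1252. The mirrored pattern was held by 1 gene of the former list and 2 of the latter, against 1.70% of genes past the minimum. Of 3 other haem enzymes, 1 was past each threshold in BRFM1218 and 2 past the upward one in 1956-1252. In lists this short, 0 genes past a threshold that 2.92% of genes pass says little. These lists were taken from earlier work on the same data.

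Membership near the thresholds is a matter of small differences. Just inside lay TRAVEDRAFT_57773, with ratios of 1.91 and 0.665, and TRAVEDRAFT_23749, with 1.51 and 0.386. Just outside lay TRAVEDRAFT_65506, with 2.20 and 0.670, and TRAVEDRAFT_58578, with 1.64 and 0.670. Within 0.1 of a threshold on the log2 scale were 17 of the 66 members, and 52 members were kept when each of the 12 libraries was left out in turn.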

How the data were processed

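RNA sequencing of 12 libraries gave 1 table each. Per the file headers, the authors deposited for each gene model a count of unique reads, a count of all reads and an RPKM value, which the values show to be all reads scaled by model length and column total. Aligner, counter, genome build and use of strand are not given in the sources used here. Protein numbers were matched to RefSeq locus tags (14250 of 14296 models, 42 with a symbol), and the table was used for names and gene order only. A drop of start position along it marked a new sequence.

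The test used edgeR 4.0.16 (R 4.3.3) on the counts of all reads, after filterByExpr had removed 1648 genes and left 12648. TMM factors were 0.819 to 0.846 in BRFM1218 and 1.18 to 1.23 in 1956-1252. A model with 1 mean per group (8 residual degrees of freedom) was fitted, with Benjamini-Hochberg adjustment over all tested genes and a call at an adjusted p under 0.05. The standard error is the size of the log2 change over the square root of F. On simulated counts for the strain difference averaged over ages (12594 genes), edgeR found 100% of the genes given a 2-fold change and 72% of those given a 1.25-fold change, and it also called 10 genes given no change. Apart from the changed genes, as many raised as lowered, the simulated strains shared the same mean levels. The simulation therefore says nothing on the scaling between the strains. Replicates of a group differed by 5.12 to 33.3 times counting noise (chi-square per degree of freedom). This is more than counting alone gives when 1 library is sequenced again. It cannot tell separate cultures from separate libraries of 1 culture.

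The members, lists and tests were chosen with earlier results of these data known. Named members were the 10 highest by the smaller of both log2 ratios, the 3 with the highest mean CPM in a group, the 4 largest strain differences in each direction among called members with a mean of at least 10 CPM and no overlap of 6 against 6 libraries, the direct neighbours, and 2 on each side of the thresholds. Promoter and protein comparisons planned for the members were not made, since no sequences were used here. Alternatives were other scalings, no filter, unique reads, DESeq2 1.42.0, a replicate block, other settings of the rule and leaving out each library.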

Additional observations from a re-analysis of the deposited data

Results flagged for a closer look

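The age change differed between the strains in all 66 members by edgeR's interaction test at an adjusted p under 0.05, as the choice by opposite age ratios all but fixes, and 27.2% of tested genes passed in the same direction. Groups of 3 libraries are too small for a check of single outlying libraries.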

How the results depend on the processing

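The rule found 62 to 75 genes without each library in turn (75 without replicate 3 of 1956-1252 at 2 weeks, of which 64 were among the 66), 75 with TMM-normalised CPM, 73 with RLE-normalised CPM, 69 with RPKM, 65 with unique reads, 75 with a pseudocount of 0.1 and 59 with a mean of at least 10 CPM. Thresholds of 2 and 0.5 left 20. Members higher in 1956-1252 in the average over ages numbered 29 to 36 and lower 27 to 34 over all alternatives, with 29 and 33 by DESeq2, 36 and 27 with library size alone, and 29 and 33 without TRAVEDRAFT_139375, an alternative chosen after seeing the data. The estimate of TRAVEDRAFT_173629, -0.00, was of the other sign with RLE factors (0.01), no filter (0.01), DESeq2 (0.01), upper quartile factors (0.30, adjusted p = 0.00174) and library size alone (0.53, adjusted p = 5.27e-06 in edgeR), and ran from -0.06 to 0.07 without each library. The call for TRAVEDRAFT_57773 was lost with library size alone (-0.03, adjusted p = 0.704). Of the members named by the choices listed above, the other 20 kept direction and call in all 19 alternatives. Members named for other reasons were not followed singly. Over all members, 30 estimates were above 0 and 36 below with TMM, against 38 and 28 with library size alone. The sign of some small differences thus depends on the scaling. With unique reads TRAVEDRAFT_139375 moved from -5.35 to -3.64.

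Replicate numbers gave no sign of a pairing. Between groups, deviations of same-numbered libraries from their group means correlated at -0.206 to 0.0972, and those of differently numbered libraries at -0.164 to 0.208. A shared batch that acts on few genes could be missed by such correlations over all genes. A fit with the replicate block gave 29 members higher and 34 lower, and 5935 and 5348 of all genes against 5950 and 5371 without it. Depth limits the members little: the lowest group mean among them, 1.70 CPM in TRAVEDRAFT_74496, lies above the 0.0944 CPM that 3 reads make in the shallowest library.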
